A study of Homo sapiens with 6 samples.

Results

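The 39 genes described here make heme or carry, store and sense the iron that goes into it, and they were followed in K562 cells treated with an EZH2 inhibitor. They were listed by symbol and are 39 of the 60671 gene identifiers in the count files. K562 is a human chronic myeloid leukemia line with erythroid features. All 6 libraries came from 1 clone that carries a doxycycline-inducible Flag-NLS-M.CviPI-Lamin-B1 fusion, which joins a GpC methyltransferase to a lamin. In the EZH2i group, 3 cultures received GSK343 at 1 µM, and in the DMSO group, 3 cultures received 0.1% DMSO. Treatment lasted 72 h in both groups, with doxycycline at 1 µg/mL for the last 24 h, so no library is free of the induced fusion. The question was which transcripts of heme and iron metabolism differ after inhibition of EZH2, the enzyme that writes H3K27me3.

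Heme is an iron-containing ring built in steps that begin and end in the mitochondrion and pass through the cytosol. Red cell precursors make it in large amounts for hemoglobin, using the erythroid form of the enzyme of the committed step, ALAS2, in place of the general form, ALAS1. Iron enters mainly as transferrin bound to its receptor, is stored in ferritin and leaves through ferroportin. Iron regulatory proteins bind short hairpins called iron-responsive elements. Such a hairpin in a 5′ untranslated region holds back translation, and those in the 3′ untranslated region of the transferrin receptor transcript protect it from decay.

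These hairpins are shown because they occur in genes of synthesis, uptake, storage and export among the 39. GENCODE 44 transcripts on GRCh38 were searched for an unpaired C, a stem of 5 pairs and a loop beginning CAGTG and ending in A, C or T. The pattern was found in the 5′ untranslated region of 4 of the 39 genes, against 29 of 19676 coding genes (0.147%), and in the 3′ untranslated region of 2 of the 39, against 113 (0.574%). The genes were listed for their part in heme and iron metabolism, so these counts describe the list and test nothing. In these sequences the capitals mark the 6 bases of the loop, and each is written 5′ to 3′ on the strand of the transcript.
*FTH1* 5′ untranslated region, chr11:61967574-61967602, minus strand: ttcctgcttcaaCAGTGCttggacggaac
*FTL* 5′ untranslated region, chr19:48965335-48965363, plus strand: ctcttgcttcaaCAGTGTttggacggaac
*ALAS2* 5′ untranslated region, chrX:55030942-55030969, minus strand, with 1 last base from the next exon: ttcgttcgtcctCAGTGCagggcaacagg
*SLC40A1* 5′ untranslated region, chr2:189580661-189580689, minus strand: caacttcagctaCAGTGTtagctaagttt
*TFRC* 3′ untranslated region, chr3:196050979-196051007, minus strand: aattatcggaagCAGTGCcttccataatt
*TFRC* 3′ untranslated region, chr3:196050463-196050491, minus strand: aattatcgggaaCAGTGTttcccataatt
The elements of the ferritin chains *FTH1* and *FTL* were identical at 26 of 29 bases. *TFRC* held 4 matches in all. The other gene with a match in its 3′ untranslated region was *TF*, in a long transcript form. A match describes the letters only, and protein binding was not measured.

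Transcripts were read from their 3′ ends, which gives about 1 read site per transcript. Levels are therefore given as CPM, the usual scaling of read counts to library size, here with TMM factors, and are not divided by transcript length. Each library held between 6327544 and 8987768 reads on genes. The share of listed reads outside annotated genes was 12.71% in EZH2i replicate 3 and between 7.43% and 8.51% in the other libraries. The erythroid markers *GATA1*, *TAL1*, *LMO2* and *KLF1* were all detected, at 13.6 CPM or more in every library. *ALB* and *CD3E*, markers of liver and T cells, had at most 0.126 and 1.08 CPM. *EPCAM*, an epithelial marker, was detected at 61.2 to 83.5 CPM.

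Of the 39 genes, 36 had enough reads to be tested. With p-values from the quasi-likelihood test of edgeR, adjusted by Benjamini-Hochberg over all 12364 tested genes, and a threshold of 0.05, *ALAS2* was higher in EZH2i, and *TF*, *FTH1* and *ISCU* were lower. The other 32 did not pass the test. The share called higher was 2.78% of the tested members and 3.34% of all tested genes. The share called lower was 8.33% of the members and 0.922% of all tested genes, and rests on those 3 genes. With a library left out, the calls fell to 0 higher and 1 lower without DMSO replicate 1 or 2 and to 0 higher and 2 lower without DMSO replicate 3. Over all tested genes the calls fell too, from 413 higher and 114 lower to 180 and 33 without DMSO replicate 1. They were 189 and 20 without DMSO replicate 2, and 185 and 55 without DMSO replicate 3. The members were chosen with earlier results of these data known, so the shares of members called are a description. The median log2 fold change was -0.08 over the members and -0.0002149 over all tested genes. In bulk RNA, fewer cells of a kind and less RNA per cell cannot be told apart.

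**Figure D1:**
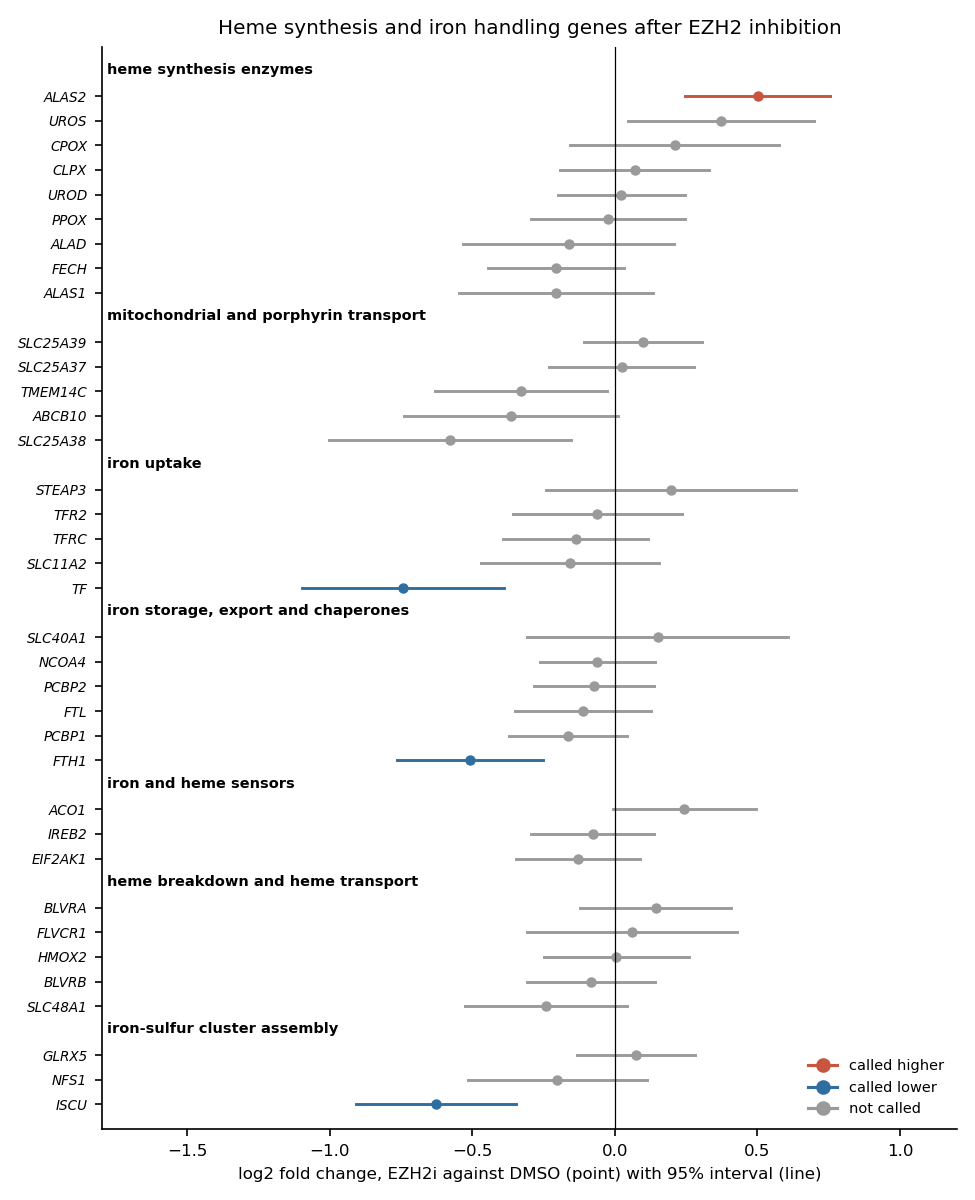
Log2 fold change of EZH2i against DMSO (horizontal axis) for the 36 tested genes, ordered by step (vertical axis), with points for the estimate and lines for the 95% interval from 3 libraries per group. *ALAS2* lies to the right of 0 at 0.50, and *TF*, *ISCU* and *FTH1* lie to the left at -0.74, -0.63 and -0.51, and of the other 32 intervals 3 leave out 0.

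Among the enzymes of heme synthesis, *ALAS2* was the only member of 9 called. *ALAS2* (ENSG00000158578, chrX:55009055-55030977) read 72.6, 67.7 and 70.4 CPM in DMSO replicates 1 to 3 and 118.1, 94.2 and 85.5 CPM in EZH2i. Every EZH2i library lay above every DMSO library, and the EZH2i libraries were spread more widely, at 99.3 ± 16.9 CPM against 70.2 ± 2.45 CPM (SD, n = 3). The log2 fold change was 0.50 with a standard error of 0.121 and a 95% interval from 0.25 to 0.76 (edgeR, adjusted p = 0.0269), a rise of 41.5%. The call did not hold when a DMSO library was left out: the adjusted p was 0.0882 without replicate 1, 0.12 without replicate 2 and 0.0868 without replicate 3.

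*ALAS1*, which encodes the form of the same enzyme used in all tissues, read 18.0, 17.0 and 18.7 CPM in DMSO and 14.4, 18.4 and 13.6 CPM in EZH2i. The groups overlapped, and the log2 fold change was -0.21 with a standard error of 0.161 (edgeR, adjusted p = 0.519). Within each library, the ratio of *ALAS2* reads to *ALAS1* reads was 4.03, 3.99 and 3.76 in DMSO and 8.23, 5.12 and 6.28 in EZH2i. The ratio was higher in every EZH2i library. The mean difference was 0.71 on the log2 scale (exact permutation test, two-sided p = 0.1, adjusted p = 0.15 over 3 ratios), and 0.1 is the smallest p that 3 libraries against 3 can give.

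The sequence before the *ALAS2* start is shown because GATA factors and the CACCC-binding factor KLF1 are well-known regulators of this erythroid gene. The 250 bases upstream of the start in RefSeq, chrX:55030978-55031227 on the minus strand of GRCh38.p14, were searched for GATAA and CACCC on both strands, and matches are in capitals.
*ALAS2* upstream sequence: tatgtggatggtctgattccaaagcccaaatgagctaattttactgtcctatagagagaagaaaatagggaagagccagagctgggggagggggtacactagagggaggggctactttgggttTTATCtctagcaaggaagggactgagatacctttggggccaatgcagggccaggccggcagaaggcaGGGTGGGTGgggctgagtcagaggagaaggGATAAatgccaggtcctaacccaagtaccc
It holds 2 matches to GATAA and 2 overlapping matches to CACCC. Windows of 300 bases around the start (250 before, 50 after) were available for 33 of the 39 genes, as 43 promoters. GATAA was present in 18.6% of these and in 22.8% of all 34796 promoters, and CACCC in 72.1% and 59.8%. The *ALAS2* window held 3 CpG dinucleotides, against a median of 26 over the members' promoters and 14 over all promoters. A match does not show that a factor binds there.

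The next enzymes in the path showed no called change. *ALAD*, which joins 2 molecules of aminolevulinate, had a log2 fold change of -0.16. *UROS*, which closes the ring, read 18.0, 15.2 and 17.5 CPM in DMSO and 25.2, 21.1 and 19.2 CPM in EZH2i. Its groups did not overlap, but the log2 fold change of 0.37 with a standard error of 0.154 did not pass the test (edgeR, adjusted p = 0.191). *UROD*, the decarboxylase that follows, was at 438.6 ± 26.1 CPM in DMSO and 445.3 ± 48.4 CPM in EZH2i (SD, n = 3). *CPOX* and *PPOX*, the oxidases of the mitochondrial steps, had log2 fold changes of 0.21 and -0.02.

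*FECH*, which encodes ferrochelatase, the enzyme that inserts iron into the ring, read 58.2, 52.6 and 57.0 CPM in DMSO and 44.2, 50.2 and 51.0 CPM in EZH2i. All EZH2i libraries lay below all DMSO libraries, but the log2 fold change of -0.21 with a standard error of 0.113 did not pass the test (edgeR, adjusted p = 0.336). *CLPX*, whose mitochondrial protein acts on ALAS, had a log2 fold change of 0.07. Over the 9 enzymes the median log2 fold change was 0.02, with 5 values above 0 and 4 below, so the rise of *ALAS2* stood beside no other called change in this path.

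**Figure D2:**
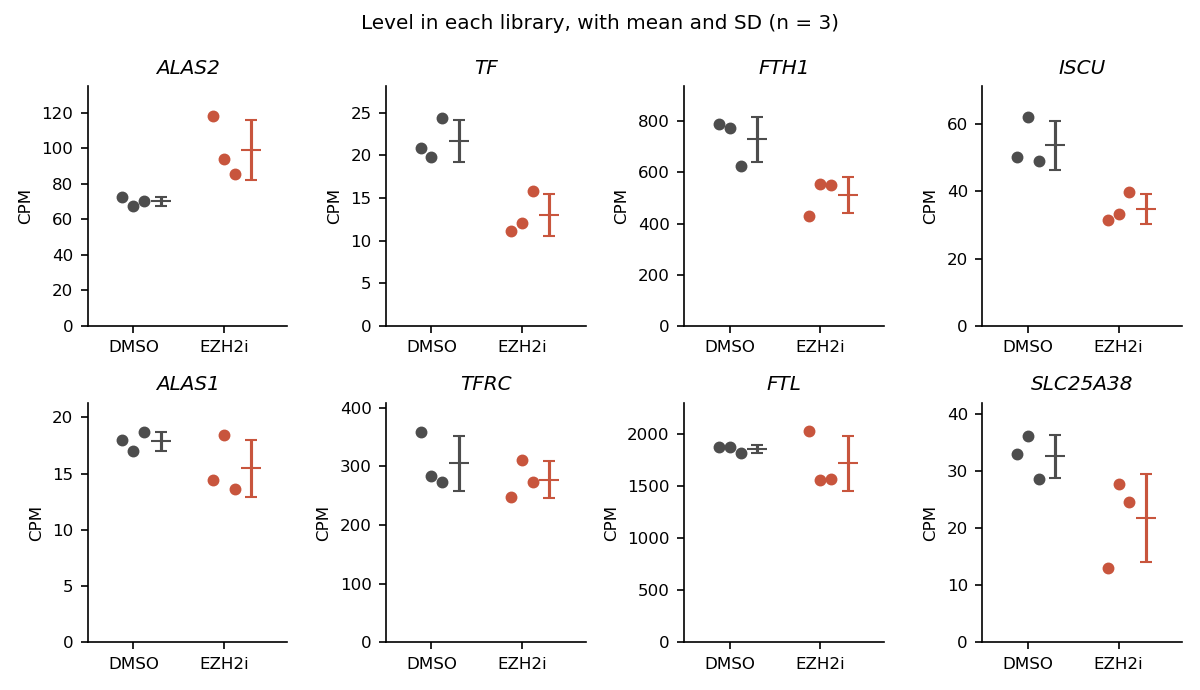
CPM (vertical axes, each starting at 0) of 8 genes in the 3 DMSO and 3 EZH2i libraries (points, replicates 1 to 3 from left to right), with the mean and SD beside them. *ALAS2*, *TF*, *FTH1*, *ISCU* and *SLC25A38* have no overlap between groups, whereas *ALAS1*, *TFRC* and *FTL* overlap.

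Carriers that move iron, glycine and porphyrins across mitochondrial membranes gave no call among 5 tested of 6. *SLC25A37*, which encodes mitoferrin 1, the importer of iron in erythroid mitochondria, read 275.6, 241.7 and 319.0 CPM in DMSO and 246.4, 285.5 and 318.3 CPM in EZH2i. The ranges were nearly the same, and the log2 fold change was 0.02 with a standard error of 0.121 (edgeR, adjusted p = 0.944). *SLC25A38*, which encodes the importer of glycine for heme synthesis (chr3:39383370-39397351), read 33.0, 36.1 and 28.6 CPM in DMSO and 13.0, 27.7 and 24.5 CPM in EZH2i. All EZH2i libraries were lower, with EZH2i replicate 1 the lowest by far. The log2 fold change of -0.58 with a standard error of 0.201 did not pass the test (edgeR, adjusted p = 0.116). *SLC25A38* was called without a filter on low counts (adjusted p = 0.00493), with a replicate block (0.0311) and without EZH2i replicate 2 (0.039), and over all alternatives its adjusted p ranged from 0.00493 to 0.347. Without EZH2i replicate 1 its log2 fold change was -0.31.

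*ABCB10*, a transporter of the inner membrane that stabilizes mitoferrin 1, read 19.9, 19.6 and 17.2 CPM in DMSO and 11.0, 15.0 and 18.0 CPM in EZH2i. The groups overlapped, with a log2 fold change of -0.36 and a standard error of 0.178 (edgeR, adjusted p = 0.274). Annotated *ABCB10* pseudogenes held between 5.93% and 15.1% of the reads on the gene and its copies, so its count is uncertain. For *TMEM14C*, needed in porphyrin transport, the log2 fold change was -0.33 (adjusted p = 0.217), and for *SLC25A39*, a carrier of glutathione, it was 0.10. Without EZH2i replicate 1 the value of *TMEM14C* was -0.17 and that of *ABCB10* was -0.19. *ABCB6*, a porphyrin transporter, had 4 reads over all 6 libraries and was not tested. Its exons share 2841 bases with another gene on the same strand, and the part of this overlap in its count was not tested.

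In iron uptake, the gene for the plasma carrier fell and the genes for its receptors did not pass the test. *TF*, which encodes transferrin (ENSG00000091513, chr3:133746040-133796641), read 20.8, 19.8 and 24.4 CPM in DMSO and 11.1, 12.1 and 15.8 CPM in EZH2i. The highest EZH2i library was below the lowest DMSO library. On the log2 scale the change was -0.74 with a standard error of 0.168 and a 95% interval from -1.10 to -0.39 (edgeR, adjusted p = 0.0188). The adjusted p was 0.0589 without DMSO replicate 1, 0.0919 without DMSO replicate 3 and 0.056 without EZH2i replicate 2. *TF* shares 122 exonic bases with *SRPRB* on the same strand. On the same scale the value of *SRPRB* was -0.34 and did not pass the test (adjusted p = 0.148), and reads of the shared bases cannot be assigned from the counts.

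*TFRC*, which encodes the main transferrin receptor, read 359.5, 284.4 and 272.7 CPM in DMSO and 247.7, 311.0 and 274.0 CPM in EZH2i. The groups overlapped, with a log2 fold change of -0.14 and a standard error of 0.121 (edgeR, adjusted p = 0.586). *TFR2*, the second receptor, had a log2 fold change of -0.06, and *SLC11A2*, which carries iron out of the endosome, one of -0.16. *STEAP3*, the endosomal reductase that prepares iron for this carrier, read 7.04, 9.38 and 9.76 CPM in DMSO and 8.67, 9.46 and 12.2 CPM in EZH2i. It was the lowest of the tested members in reads, and its log2 fold change of 0.20 with a standard error of 0.208 did not pass the test (edgeR, adjusted p = 0.662).

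In iron storage the heavy chain of ferritin fell, and the light chain did not pass the test. *FTH1*, which encodes the heavy chain with the ferroxidase activity (ENSG00000167996, chr11:61959718-61967634), read 786.8, 772.1 and 625.7 CPM in DMSO and 429.4, 555.2 and 551.3 CPM in EZH2i. The groups did not overlap, and the lowest value was that of EZH2i replicate 1. The log2 fold change was -0.51 with a standard error of 0.121 and a 95% interval from -0.76 to -0.25 (edgeR, adjusted p = 0.0252). Leaving out DMSO replicate 1 gave an adjusted p of 0.12, and leaving out DMSO replicate 2 gave 0.118. The 25 annotated pseudogenes of *FTH1* held from 0.20% to 0.44% of the reads on the gene and its copies, and with their reads added the log2 fold change was again -0.51.

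*FTL*, which encodes the light chain, read 1877.6, 1873.3 and 1816.5 CPM in DMSO and 2026.2, 1559.2 and 1566.4 CPM in EZH2i. EZH2i replicate 1 lay above all DMSO libraries and the other EZH2i libraries lay below them. The log2 fold change was -0.11 with a standard error of 0.114 (edgeR, adjusted p = 0.645). Within a library the ratio of *FTH1* to *FTL* reads was 0.419, 0.412 and 0.344 in DMSO and 0.212, 0.356 and 0.352 in EZH2i. The groups overlapped, and the mean difference of -0.39 on the log2 scale did not pass the test (exact permutation test, two-sided p = 0.3, adjusted p = 0.3 over 3 ratios). Without EZH2i replicate 1 the difference was -0.14.

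The third ratio set *TFRC* reads against those of the ferritin heavy chain *FTH1* only. *FTL*, with more reads than *FTH1* in every library, was not part of it, so it does not measure uptake against storage as a whole. The ratio of *TFRC* to *FTH1* was 0.457, 0.368 and 0.436 in DMSO and 0.577, 0.56 and 0.497 in EZH2i. It was higher in every EZH2i library. The mean difference was 0.38 on the log2 scale (exact permutation test, two-sided p = 0.1, adjusted p = 0.15 over 3 ratios), at the smallest p the design allows. *TFRC* itself overlapped between groups.

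**Figure D3:**
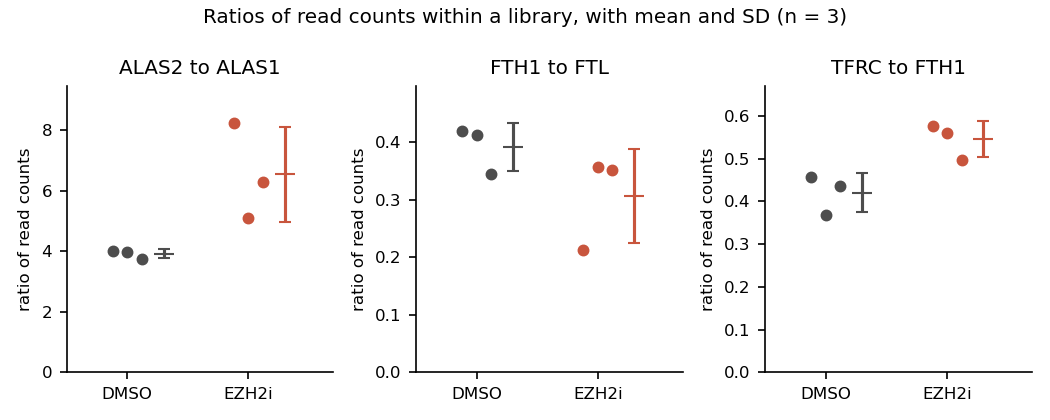
Ratios of read counts within each library (vertical axes, starting at 0) for *ALAS2* to *ALAS1*, *FTH1* to *FTL* and *TFRC* to *FTH1* in the 3 DMSO and 3 EZH2i libraries (points), with the mean and SD. The *ALAS2* to *ALAS1* ratio is 3.76 to 4.03 in DMSO and 5.12 to 8.23 in EZH2i, and the *FTH1* to *FTL* ratio overlaps between groups.

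*SLC40A1*, which encodes ferroportin, the exporter of iron, read 9.85, 12.6 and 8.28 CPM in DMSO and 9.89, 14.6 and 9.45 CPM in EZH2i. The groups overlapped widely, and the log2 fold change was 0.15 with a standard error of 0.217 (edgeR, adjusted p = 0.762), the largest standard error among the tested members. *PCBP1*, an iron chaperone that delivers iron to ferritin, read 230.8, 252.9 and 223.7 CPM in DMSO and 209.0, 205.0 and 217.6 CPM in EZH2i. Its groups did not overlap, but the log2 fold change of -0.16 with a standard error of 0.0985 did not pass the test (edgeR, adjusted p = 0.382). *PCBP2*, a related chaperone, and *NCOA4*, the receptor that carries ferritin to the lysosome, had log2 fold changes of -0.07 and -0.06. The 6 genes of storage, export and chaperones together read between 3271.8 and 3517.6 CPM in DMSO and between 2881.8 and 3261.6 CPM in EZH2i, and *FTL* and *FTH1* held most of these reads.

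The sensors of iron and heme gave no call among 3. *ACO1*, which encodes iron regulatory protein 1, read 49.7, 47.3 and 42.6 CPM in DMSO and 48.8, 58.1 and 58.0 CPM in EZH2i. The groups overlapped, with a log2 fold change of 0.24 and a standard error of 0.119 (edgeR, adjusted p = 0.275). *IREB2*, which encodes iron regulatory protein 2, had a log2 fold change of -0.08. *EIF2AK1*, which encodes HRI, the kinase that slows translation when heme is scarce, read 380.0, 359.5 and 353.0 CPM in DMSO and 295.3, 362.7 and 340.6 CPM in EZH2i. Its log2 fold change was -0.13 with a standard error of 0.104 (edgeR, adjusted p = 0.536).

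Of the genes for heme breakdown and heme transport, 5 of 7 were tested and none was called by edgeR or DESeq2, and none had an unadjusted p under 0.05 in edgeR. *HMOX1*, the stress-induced heme oxygenase, was listed at 0 in all 6 libraries, which allows up to 3 reads per library, or 0.34 to 0.469 CPM. No fold can be given for it. *HMOX2*, the constant form, was at 59.8 ± 2.33 CPM in DMSO and 60.1 ± 9.05 CPM in EZH2i (SD, n = 3), with a log2 fold change of 0.0052 whose sign changed with RLE scaling. *FLVCR2*, a transporter of the same family as the heme exporter *FLVCR1*, was also listed at 0 in every library and shares 332 exonic bases with *TTLL5* on the same strand.

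*BLVRA*, a reductase of biliverdin, read 43.9, 45.8 and 49.6 CPM in DMSO and 59.7, 49.4 and 44.8 CPM in EZH2i, with a log2 fold change of 0.14 and a standard error of 0.126 (edgeR, adjusted p = 0.587). *BLVRB*, the other biliverdin reductase, had a log2 fold change of -0.08 and *FLVCR1* one of 0.06. *SLC48A1*, which moves heme out of lysosomes, read 35.3, 28.3 and 30.0 CPM in DMSO and 27.9, 24.6 and 26.4 CPM in EZH2i. The groups did not overlap, but the log2 fold change of -0.24 with a standard error of 0.135 did not pass the test (edgeR, adjusted p = 0.34).

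Iron-sulfur clusters use the same mitochondrial iron, and their scaffold fell. *ISCU*, the scaffold on which the clusters are built (ENSG00000136003, chr12:108562582-108569368), read 50.2, 62.1 and 48.9 CPM in DMSO and 31.4, 33.3 and 39.8 CPM in EZH2i. Every EZH2i library was lower than every DMSO library. On the log2 scale the change was -0.63 with a standard error of 0.133 and a 95% interval from -0.91 to -0.35 (edgeR, adjusted p = 0.0132), the smallest adjusted p among the members. It was 0.0966 without DMSO replicate 2 and held in the other 5 fits with a library left out. *NFS1*, the desulfurase that supplies sulfur to the scaffold, read 37.5, 28.7 and 35.0 CPM in DMSO and 24.2, 29.3 and 34.4 CPM in EZH2i, with a log2 fold change of -0.20 and a standard error of 0.15 (edgeR, adjusted p = 0.496). For *GLRX5*, which passes clusters on, the log2 fold change was 0.07.

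**Figure D4:**
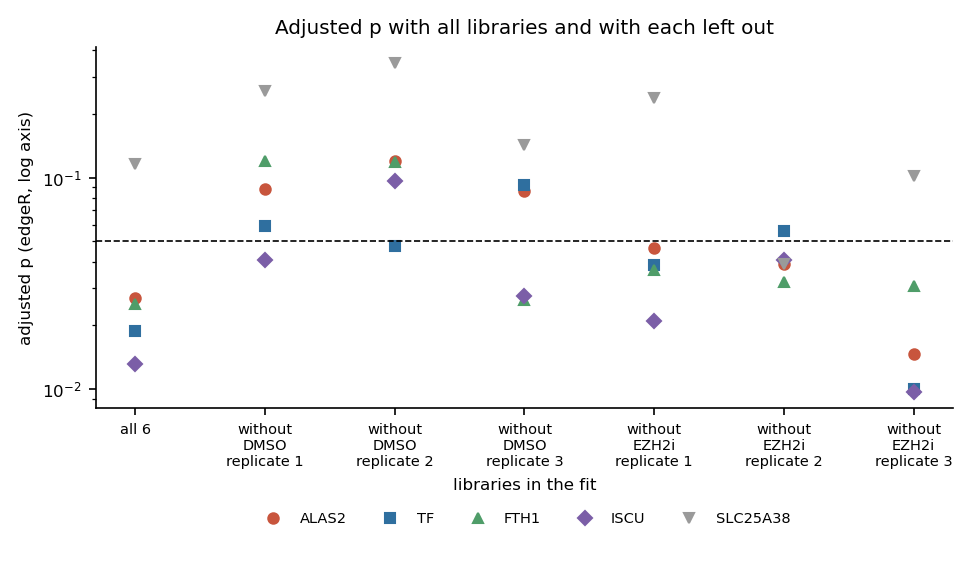
Adjusted p of edgeR (vertical axis, log scale) for 5 genes with all 6 libraries and with each library left out in turn (horizontal axis), with a dashed line at 0.05. *ALAS2* lies above the line in each fit that lacks a DMSO library, *ISCU* only in the fit without DMSO replicate 2, and *SLC25A38* lies below the line only without EZH2i replicate 2.

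The groups of libraries did not overlap for 2 members that were higher in EZH2i, *ALAS2* and *UROS*, and for 7 that were lower. The first are 5.56% of the tested members, against 13.3% of all tested genes, and the second 19.4%, against 11.1%. The 7 were *TF*, *FTH1*, *ISCU*, *SLC25A38*, *FECH*, *PCBP1* and *SLC48A1*. EZH2i replicate 1 had the lowest level of the 6 libraries for 15 of the 36 members (41.7%), against 24.3% of all tested genes. Without that library *ALAS2*, *TF*, *FTH1* and *ISCU* were all called again, and also without EZH2i replicate 3, the library with the highest share of reads outside genes.

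**Figure D5:**
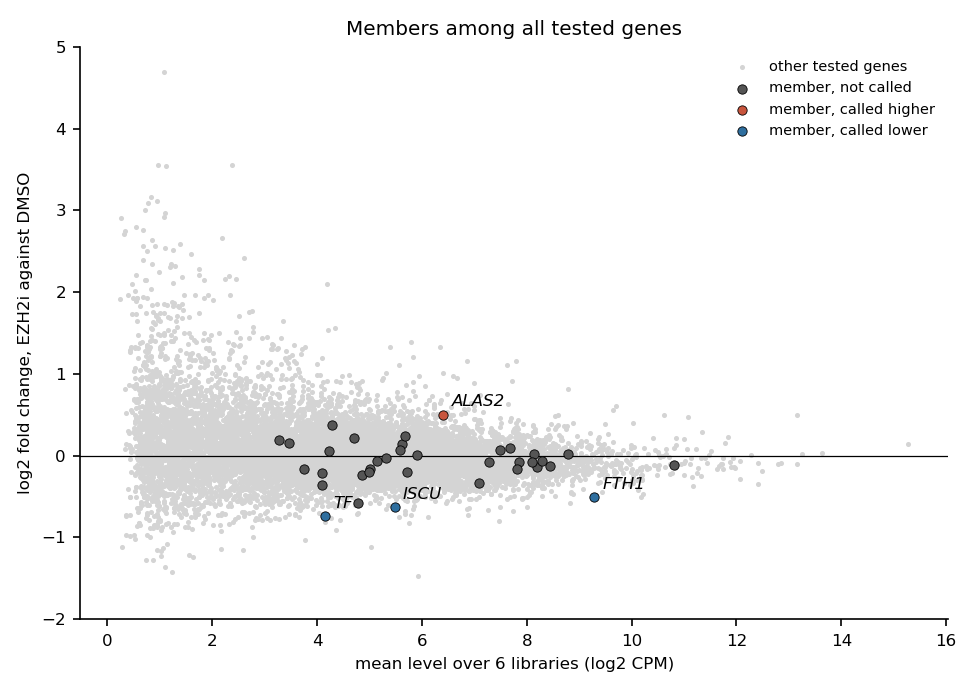
Log2 fold change of EZH2i against DMSO (vertical axis) by mean level in log2 CPM (horizontal axis) for all 12364 tested genes in light grey and the 36 tested members as larger points. The called members, *ALAS2* above 0 and *TF*, *ISCU* and *FTH1* below, are named beside their points.

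A wider list of 44 other genes of heme and iron metabolism was read in the same fit. Of its 33 tested genes, 2 rose (6.06%, against 3.34% of all tested genes) and 2 fell (6.06%, against 0.922%), and the median log2 fold change was -0.01. A replicate block gave 1 higher and 3 lower, and no filter on low counts gave 1 higher and 4 lower. Over all tested genes the block gave 450 higher and 149 lower of 12364. No filter gave 579 higher and 349 lower of 26226, against 413 and 114 of 12364 in the main fit. *FDXR*, the reductase that supplies electrons for cluster assembly, read 51.6, 59.6 and 68.4 CPM in DMSO and 102.8, 76.4 and 90.1 CPM in EZH2i, a log2 fold change of 0.58 (standard error 0.13, edgeR adjusted p = 0.0177). *BACH1*, a heme-binding repressor of *HMOX1*, rose by 0.44 on the log2 scale (adjusted p = 0.0365), which neither DESeq2 (adjusted p = 0.0606) nor a replicate block (adjusted p = 0.0514) called. *HSPA9*, the mitochondrial chaperone that works with the *ISCU* scaffold, read 332.6, 284.4 and 307.4 CPM in DMSO and 218.9, 236.4 and 206.1 CPM in EZH2i, a log2 fold change of -0.48 (standard error 0.103, edgeR adjusted p = 0.0136). *BOLA3*, a late factor of the same assembly, had one of -0.46 (adjusted p = 0.0414), which limma-voom did not call (adjusted p = 0.0519). Of the 6 fits with a library left out, *FDXR* was called in 4, losing the call without DMSO replicate 1 (adjusted p = 0.109) or 2 (0.0836). *HSPA9* was called in 3, losing it without DMSO replicate 1 (0.0833), DMSO replicate 3 (0.0556) or EZH2i replicate 3 (0.0546). *BACH1* was called in 1, without EZH2i replicate 1, and *BOLA3* in 1, without DMSO replicate 3, with adjusted p up to 0.133 and 0.236 in the others. With DMSO replicate 1 left out none of the 44 was called, and with DMSO replicate 2 or EZH2i replicate 3 left out 1 was. Over all tested genes the fit without DMSO replicate 1 called 180 higher and 33 lower of 12789. The fit without DMSO replicate 2 called 189 and 20 of 12653, and that without EZH2i replicate 3 called 325 and 104 of 12687.

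The 7 erythroid markers together (*GATA1*, *TAL1*, *LMO2*, *KLF1*, *HBG1*, *HBG2* and *HBZ*) read 441.0 to 469.5 CPM in DMSO and 552.3 to 677.8 CPM in EZH2i, without overlap. Of these, *HBZ* and *HBG2*, an embryonic and a fetal globin, were higher (log2 fold changes of 1.15 and 0.58, edgeR adjusted p = 6.14e-05 and 0.0251). *HBG2* lost the call without DMSO replicate 1 (adjusted p = 0.0724), 2 (0.138) or 3 (0.0624), and *HBZ* kept it in all 6 fits. *HBG1*, the paralog of *HBG2*, with which it can share reads, was at -0.39 (adjusted p = 0.444). The log2 fold change was 0.28 for *GATA1*, the erythroid transcription factor (adjusted p = 0.164), 0.05 for *TAL1*, -0.08 for *LMO2* and -0.07 for *KLF1*, none past the threshold. The part of these markers in the rise of *ALAS2* was not tested. The 6 markers of other cells read 98.8 to 101.4 CPM in DMSO and 89.5 to 93.1 CPM in EZH2i, and of them *COL1A1* was called higher, at 1.25 to 2.16 CPM against 4.06 to 7.88 CPM. *EPCAM* held most of these reads and was at 72.7 to 83.5 CPM in DMSO and 61.2 to 66.6 CPM in EZH2i, a log2 fold change of -0.28 that did not pass the test (edgeR, adjusted p = 0.156).

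Exons of 17 members overlap those of another annotated gene, and the strand setting of the counting is not stated, so reads in those stretches are uncertain. The overlap of *ALAS2* is 3 bases, on the opposite strand, and *ISCU* has none. *FTH1* shares 1267 exonic bases with *BEST1* on the opposite strand, which had 31 reads over the 6 libraries against 3170 or more for *FTH1* in each.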

How the data were processed

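RNA from 3 separate cultures per treatment was sequenced with the QuantSeq FWD 3′ mRNA kit. The authors deposited raw counts per Ensembl gene and library. The labels name STAR 2.6.0c, HTSeq 0.11.2 and DESeq2 on hg38 (GRCh38), the study took its annotation from Ensembl, and the strand setting is not given in the sources used here. A deposited table of the authors' own comparison (fold changes, p-values) was not used.

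Rows that name no gene held 32.07% to 36.4% of listed reads and were left out. Symbols came from GENCODE 44, which matched 60401 of 60671 identifiers. The test was that of edgeR 4.0.16 (R 4.3.3) on the counts, with TMM scaling, filterByExpr at a minimum count of 10, glmQLFit and glmQLFTest without covariates, two-sided, Benjamini-Hochberg adjusted. The standard error is the log2 fold change divided by the square root of F. Replicates of a group, compared pair by pair, differed beyond sampling noise, with chi-square over degrees of freedom between 4.25 and 11.5. The floor of 3 reads covers counting error only. Fits were tested on simulated data. DESeq2 1.42.0, limma-voom (limma 3.58.1), other scalings, filters and thresholds, a replicate block and fits with a library left out were alternatives.

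The members, like the lists of other genes and markers, were chosen with earlier results of these data known. Values per library, the log2 fold change, its standard error and adjusted p are given for called members, the 2 of each step with the largest absolute log2 fold change, and *ALAS2*, *ALAS1*, *FECH*, *SLC25A37*, *TFRC*, *FTH1*, *FTL*, *SLC40A1*, *HMOX1* and *EIF2AK1*. A further planned ratio, *HMOX1* to *HMOX2*, has no value since *HMOX1* is listed at 0, so p-values were adjusted over 3 ratios. A planned marker gene is not reported here.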

Additional observations from a re-analysis of the deposited data

How the results depend on the processing

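The 4 calls (*ALAS2*, *TF*, *FTH1*, *ISCU*) were made again with DESeq2, limma-voom, RLE or upper-quartile factors, and 10 counts in every library. A looser threshold of 0.1 in edgeR, which keeps these calls by construction, added no member. At an adjusted p under 0.01 edgeR on all 6 libraries called 0 of the members (7 had an unadjusted p under 0.05), whereas with DESeq2 *FTH1* (0.00298) and *ISCU* (0.00404), with the block *TF* (0.00804) and *ISCU* (0.00703), and without a filter all 4 were under 0.01. No filter on low counts and a replicate block each gave 5, with *SLC25A38* added. Over all tested genes, higher and lower calls were 579 and 349 of 26226 without a filter and 450 and 149 of 12364 with the block. With a library left out the count ran from 1 (without DMSO replicate 1 or 2) to 4, and that of the 44 other genes from 0 to 4. Over all tested genes, 413 were higher and 114 lower with all libraries. Without DMSO replicates 1, 2 and 3 in turn, 180, 189 and 185 were higher and 33, 20 and 55 lower. The replicate numbers did not pair the samples (correlations of deviations from -0.05 to -0.02), and the block, which leaves the log2 differences of the ratios as they are by construction, gave an exact sign-flip p of 0.25 for *ALAS2* to *ALAS1*, 0.5 for *FTH1* to *FTL* and 0.25 for *TFRC* to *FTH1*, where 0.25 is the smallest p that 3 pairs can give. Of the 36 tested members, 29 kept their sign in every fit. The other 7, none called, changed sign in at least 1 fit: without a filter, *UROD* (-0.0018), *SLC25A37* (-0.0002) and *HMOX2* (-0.0181), the last also with DESeq2 (-0.0123), RLE factors (-0.0029), the block (-0.0049) and limma-voom (-0.0052). With a library left out the ranges were -0.0696 to 0.0675 for *UROD*, -0.109 to 0.0696 for *PPOX*, -0.0686 to 0.1327 for *SLC25A37*, -0.1722 to 0.0244 for *TFR2*, -0.0837 to 0.3349 for *SLC40A1*, -0.1205 to 0.0849 for *HMOX2* and -0.1599 to 0.2141 for *FLVCR1*. Without a filter the median log2 fold change over the genes of the main fit was -0.0234, against -0.0002 in the main fit. The cause of the sign changes was not tested. Standard errors of members ran from 0.0953 to 0.217, and changes of that size could not be told from 0 with 3 libraries per group.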
